A study of Homo sapiens with 2 samples.

Results

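The 10 genes described here encode transcription factors that set the balance between epithelial and mesenchymal state. They are the repressors SNAI1, SNAI2, SNAI3, ZEB1 and ZEB2, the basic helix-loop-helix factors TWIST1 and TWIST2, the forkhead factor FOXC2, and the epithelial factors GRHL2 and OVOL1. They were chosen by gene symbol from a deposited table of 56255 symbols, and each of the 10 stood on a single row. Levels were compared between A549 cells overexpressing MYOCD (1 library, called MYOCD) and wild-type A549 cells (1 library, called WT). A549 cells come from a human lung adenocarcinoma and were grown in DMEM medium with serum in both groups. Myocardin, the product of MYOCD, binds SRF and activates smooth muscle and cardiac genes with it. The labels state neither the means of MYOCD expression nor whether the cells were a clone or a pool. Total RNA was sequenced after TruSeq library preparation, and the authors deposited RPKM, that is reads scaled to the length of the gene and to the size of the library. There were no replicates, so no value below has a replicate error and no difference was tested.

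In the epithelial-mesenchymal transition (EMT), SNAI and ZEB proteins bind E-box sequences in epithelial genes such as the E-cadherin gene CDH1 and recruit corepressors. TWIST proteins bind DNA as dimers with E proteins, and FOXC2 acts downstream of several inducers of the transition. GRHL2 and OVOL1 maintain epithelial junction genes and restrain ZEB1, and the miR-200 family of microRNAs restrains ZEB1 and ZEB2.

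MYOCD itself stood at 48.6 RPKM in MYOCD and 0.304 RPKM in WT, in the direction of the labels. The deposited RPKM summed to 880876 in MYOCD and 886700 in WT. Ratios of low values between the libraries piled up at simple fractions, as whole reads would make them, which put the depth of the MYOCD library at 0.872 of that of the WT library. From the size of 1 read, the libraries held roughly 16.5 M counted reads in MYOCD and 18.8 M in WT. Read numbers given below are estimates on this basis, for the longest coding transcript of each gene. Of the epithelial keratin genes, KRT7 had 1386 RPKM in MYOCD and 996 RPKM in WT, KRT8 had 1059 and 1523 RPKM, and KRT18 had 1134 and 1647 RPKM, while KRT19 was low, at 3.24 and 2.94 RPKM. The alveolar type II gene SFTPC was listed at 0 in both. None of 14 fibroblast, endothelial and blood markers reached 1 RPKM in either library. Their summed levels in MYOCD and WT were 0.986 and 0.780 RPKM for 6 fibroblast markers, 0.139 and 0.00689 RPKM for 4 endothelial markers, and 0.133 and 0.0221 RPKM for 4 blood markers, with the leukocyte gene PTPRC, the fibroblast gene DCN and the endothelial genes CDH5, VWF and KDR at 0 in both. In a bulk library, fewer expressing cells and less RNA per cell cannot be told apart.

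The mesenchymal factors were present at low levels and the epithelial factors were at or near 0. Of the 8 mesenchymal factors, 6 had a higher value in MYOCD than in WT, with SNAI2 and FOXC2 higher by 2-fold or more. TWIST1 stood at nearly the same value and TWIST2 at a lower one. Of the 6, SNAI3 and ZEB2 stayed under 1 RPKM in both libraries, and SNAI2 and FOXC2 under 1 RPKM in WT. Over all genes with at least 1 RPKM in a library, the median log2 change was -0.0021. The count of 6 describes single genes and was not tested. Summed over the 8 genes, the level was 24.2 RPKM in MYOCD and 18.4 RPKM in WT, a ratio of 1.31. ZEB1 and TWIST2 led the order in both libraries, followed by SNAI1 and TWIST1. With 1 library a group, no spread is known against which neighbours in this order could be told apart.

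**Figure D1:**
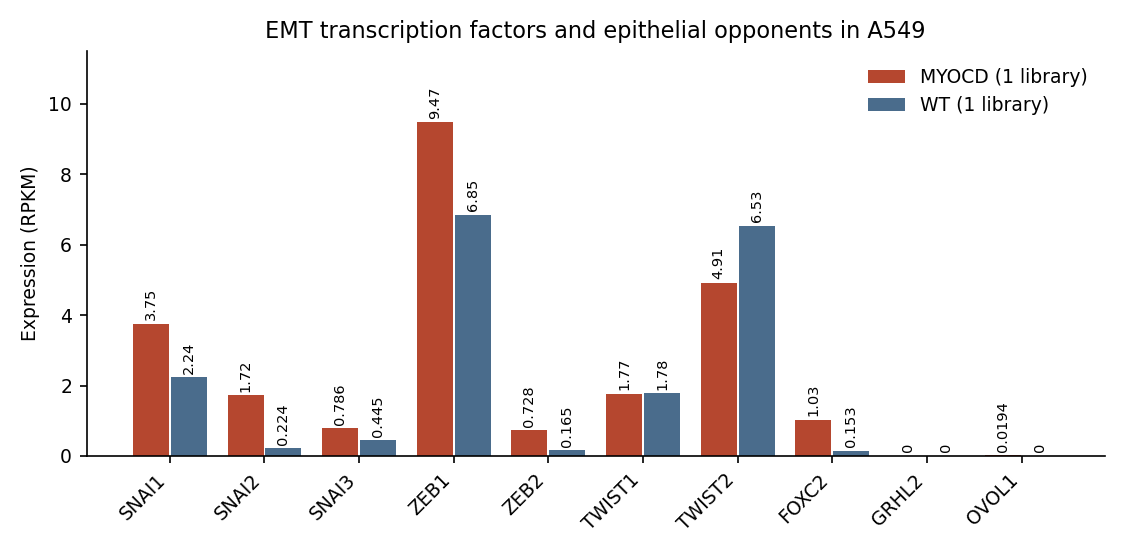
Deposited RPKM of the 10 genes in the single MYOCD library (left bar of each pair) and the single WT library (right bar), with the value above each bar. ZEB1 reached 9.47 RPKM in MYOCD and 6.85 RPKM in WT, TWIST2 was the highest gene with a lower value in MYOCD, and GRHL2 and OVOL1 had no visible bar.

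A change is given as log2((MYOCD RPKM + 0.5)/(WT RPKM + 0.5)), which understates the change of low genes, and a gene with at least 1 RPKM in a library was counted as higher or lower at 2-fold or more on that scale. This is a rule of size. Of the 10 genes, 6 passed this filter, and 2 of them, SNAI2 and FOXC2, were higher by 2-fold or more in MYOCD and 0 were lower. Over all 17350 genes past the filter, 5.42% stood at least 2-fold above WT and 6.35% at least 2-fold below, 11.8% in all. Over the 12337 protein-coding genes among them these shares were 3.02%, 3.1% and 6.11%. Over the protein-coding genes with 1 to 2 RPKM in their higher library, where SNAI2 and FOXC2 lie, they were 6.43%, 8.21% and 14.6%. Both SNAI2 and FOXC2 passed only through the MYOCD library, and such genes have to differ: of 369 protein-coding genes that passed only through MYOCD, 37.7% were higher by 2-fold or more. The count of 2 therefore describes the genes and supports nothing about them as a group. The median change over the 6 that passed was 0.54, against -0.0021 over all genes past the filter, and it was 0.21 over the 4 genes with a mean of at least 1 RPKM, none of which differed by 2-fold.

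**Figure D2:**
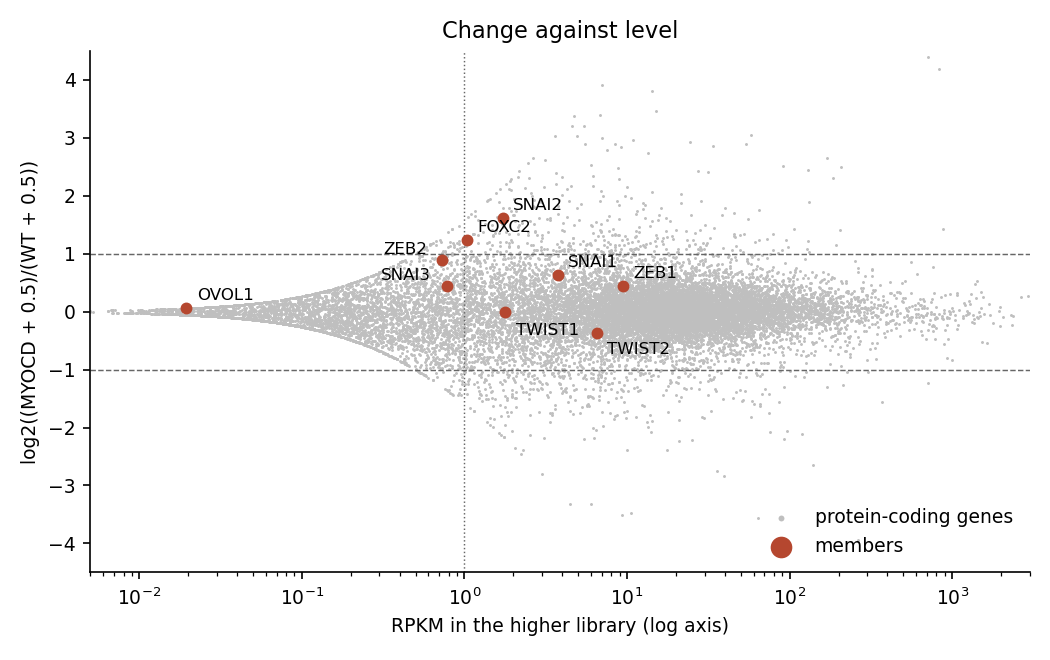
Change between MYOCD and WT on the log2 scale against the RPKM of the higher library (log axis) for protein-coding genes (grey) and the 9 members with a value above 0 (red). Dashed lines mark 2-fold and the dotted line marks 1 RPKM. SNAI2 and FOXC2 lie above the upper dashed line, close to the left edge of the filter, and the other members lie between the dashed lines.

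SNAI1 (Snail) is the SNAI factor most directly tied to repression of CDH1. SNAI1, ENSG00000124216 at chr20:49982999-49988886, plus strand (GRCh38), had 3.75 RPKM in MYOCD, against 2.24 RPKM in WT, or about 104 and 71 reads. Its ratio was 1.67 and its log2 change 0.63, so it was higher by less than 2-fold.

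SNAI2 (Slug), a repressor first known from neural crest migration, had the highest ratio and log2 change among the 10. The gene (ENSG00000019549) lies at chr8:48917604-48921740, minus strand. SNAI2 had 1.72 RPKM in MYOCD, against 0.224 RPKM in WT, or about 69 and 10 reads. The ratio of the deposited values was 7.67 and the log2 change 1.62. In RPKM, its difference was smaller than those of ZEB1 (2.62), TWIST2 (-1.62) and SNAI1 (1.51). Among protein-coding genes, 43.1% stood below SNAI2 in MYOCD and 30.0% in WT.

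SNAI3, the least studied of the 3, stayed under 1 RPKM and was counted neither way. SNAI3, ENSG00000185669 at chr16:88677682-88686493, minus strand, had 0.786 RPKM in MYOCD and 0.445 RPKM in WT, or about 22 and 14 reads. Its exons overlap those of the antisense gene SNAI3-AS1 over 163 bases, and SNAI3-AS1 stood at 2.07 RPKM in MYOCD and 2.42 RPKM in WT. The sources used here do not say whether reads were counted by strand, so values of a gene and its antisense partner cannot be fully told apart.

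Together the SNAI genes summed to 6.26 RPKM in MYOCD and 2.91 RPKM in WT. SNAI1 made up 59.9% of that sum in MYOCD and 77.0% in WT. SNAI2 made up 27.5% in MYOCD and 7.71% in WT. The SNAI pool thus held a greater share of SNAI2 in the MYOCD library, with SNAI1 the leading gene in both.

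**Figure D3:**
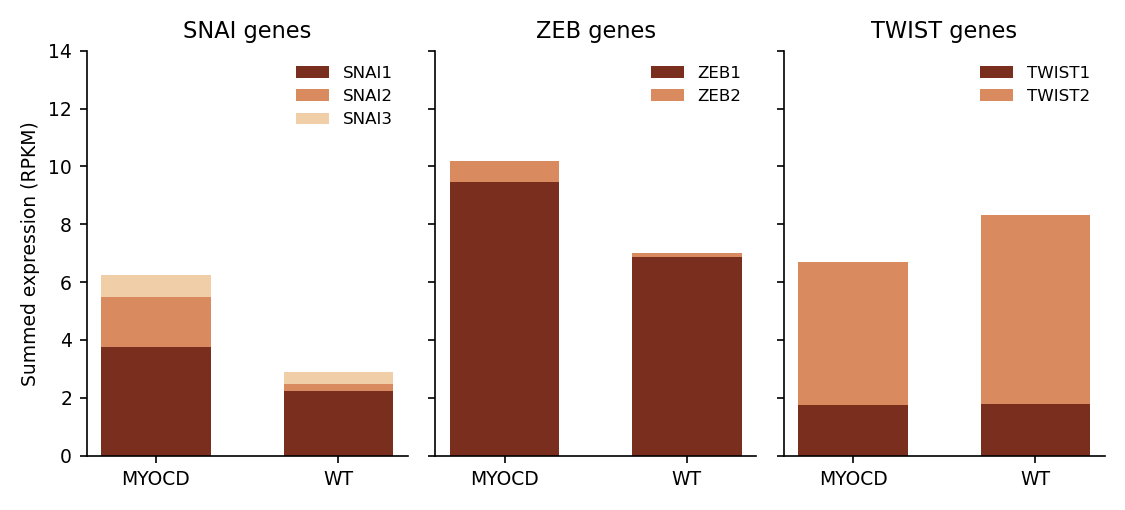
RPKM of the SNAI, ZEB and TWIST genes stacked within each family for the single MYOCD library (left) and the single WT library (right). The SNAI sum was 6.26 RPKM in MYOCD and 2.91 RPKM in WT, the ZEB sum 10.2 and 7.02 RPKM, and the TWIST sum 6.68 and 8.31 RPKM.

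ZEB1 was the most abundant of the 10 in either library. This zinc finger and homeodomain repressor acts on CDH1 and on the miR-200 genes, which in turn act on ZEB1. ZEB1, ENSG00000148516 at chr10:31318495-31529814, plus strand, had 9.47 RPKM in MYOCD and 6.85 RPKM in WT, or about 979 and 806 reads. Its log2 change was 0.44. Of protein-coding genes, 61.5% stood below ZEB1 in MYOCD and 56.4% in WT. The antisense gene ZEB1-AS1, which shares 366 exonic bases with ZEB1, stood at 3.21 RPKM in MYOCD and 3.80 RPKM in WT, the opposite direction to ZEB1.

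ZEB2, the paralog of ZEB1, was far lower. ZEB2, ENSG00000169554 at chr2:144364364-144524583, minus strand, had 0.728 RPKM in MYOCD and 0.165 RPKM in WT. Because its longest coding transcript has 9583 bases, these low values stand for about 115 reads in MYOCD and 30 reads in WT. The ratio of the deposited values was 4.42. The log2 change was 0.89 with the pseudocount of 0.5 RPKM and 1.64 with one of 0.1 RPKM, and ZEB2 did not reach the filter of 1 RPKM. The antisense gene ZEB2-AS1 was listed at 0 in both libraries. ZEB2 made up 7.14% of the ZEB sum in MYOCD and 2.35% in WT.

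The miR-200 sequences and their matches in ZEB1 and ZEB2 are shown because this family links the ZEB repressors to epithelial state. The mature forms, from RefSeq (GRCh38.p14), are given 5′ to 3′ with the seed, bases 2 to 8, in capitals. The first 3 share one seed and the last 2 share the other.
miR-200b-3p: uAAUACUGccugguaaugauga
miR-200c-3p: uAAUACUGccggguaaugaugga
miR-429: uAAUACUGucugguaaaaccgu
miR-200a-3p: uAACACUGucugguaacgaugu
miR-141-3p: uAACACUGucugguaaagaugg

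The loci MIR200A, MIR200B and MIR429 on chromosome 1 and MIR200C and MIR141 on chromosome 12 were each listed at 0 RPKM in both libraries. Of 18 listed loci of microRNAs linked to the transition, 13 were listed at 0 in both libraries and 3 passed the filter, none of them past 2-fold. The loci that passed were MIR34A with 4.20 RPKM in MYOCD and 4.02 RPKM in WT, MIR17HG with 5.12 and 5.38 RPKM, and VMP1 with 324 and 339 RPKM. VMP1 is a protein-coding gene with a small RNA gene inside it, so its value is not that of a microRNA. Mature microRNAs are too short for this kind of library, so a value of 0 says nothing about their abundance. Matches to the seeds were searched in the longest annotated 3′ UTR of each gene (GENCODE release 29), as the letters CAGTATT for the first seed and CAGTGTT for the second, on the sense strand. The ZEB1 3′ UTR of 2549 bases held 9 matches, 6 to the first seed and 3 to the second. The ZEB2 3′ UTR of 5370 bases held 9 as well, 5 and 4. Among 19141 protein-coding genes, 28.2% held at least 1 match and 0.0313% held 9 or more. The genes with 9 or more were ZBTB20, LRCH3, SMAD2, SRGAP1, ZEB1 and ZEB2, and ZEB1 had the shortest 3′ UTR of these 6. SNAI2 and GRHL2 held 1 match each, and the other 6 members held 0. A match is a run of letters and not a shown site.

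The first match to each seed in either gene is printed in its surroundings, 5′ to 3′ on the transcript strand, from GRCh38 transcripts with the letters that pair with the seed in capitals. The sites lie at chr10:31527619-31527640 and chr10:31528032-31528053 for ZEB1 (plus strand), and at chr2:144389052-144389073 and chr2:144389236-144389257 for ZEB2 (minus strand).
ZEB1 first seed: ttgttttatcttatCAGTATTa
ZEB1 second seed: aaaatcatcagaatCAGTGTTt
ZEB2 first seed: gcactaccatacatCAGTATTt
ZEB2 second seed: gcaaaaattttgtaCAGTGTTa

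**Figure D4:**
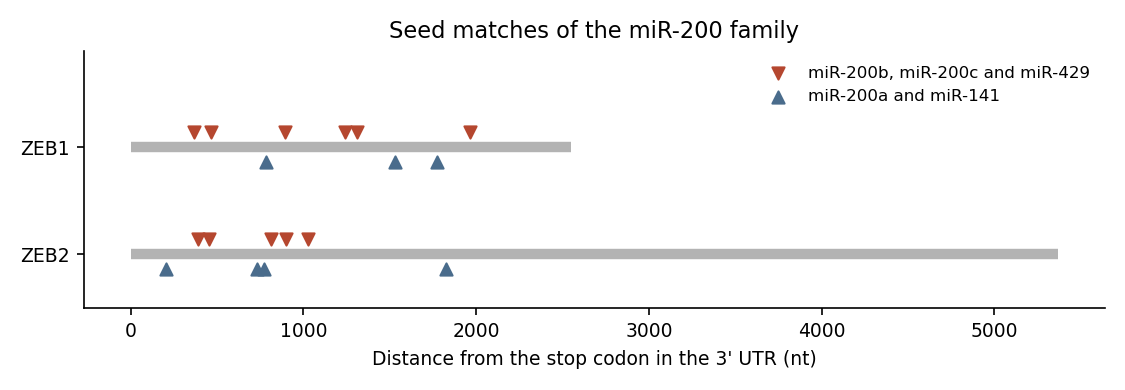
Position of seed matches of the miR-200 family in the 3′ UTRs of ZEB1 (2549 bases) and ZEB2 (5370 bases), as distance from the stop codon; downward triangles are matches to the seed of miR-200b, miR-200c and miR-429, upward triangles to that of miR-200a and miR-141. Each gene holds 9 matches, and in ZEB2 they lie in the part nearest the stop codon.

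Promoter windows were searched for the E-box CAGGTG, which on the other strand reads CACCTG and is the kind bound by SNAI and ZEB proteins. RefSeq windows from 250 bases before to 50 bases after a start were held for 3 of the 10 members, ZEB1, ZEB2 and TWIST2. Of the 7 ZEB1 windows, at alternative starts, 5 held 0, 1 held 1 and 1 held 3. Among 35116 single windows of all genes, 20.6% held at least 1 and 0.635% held 3 or more, a share that does not allow for ZEB1 having 7 windows to choose from. The ZEB1 window with 3 spans chr10:31318966-31319265 on the plus strand (GRCh38.p14) and is printed 5′ to 3′ with the E-boxes in capitals.
ZEB1 promoter window: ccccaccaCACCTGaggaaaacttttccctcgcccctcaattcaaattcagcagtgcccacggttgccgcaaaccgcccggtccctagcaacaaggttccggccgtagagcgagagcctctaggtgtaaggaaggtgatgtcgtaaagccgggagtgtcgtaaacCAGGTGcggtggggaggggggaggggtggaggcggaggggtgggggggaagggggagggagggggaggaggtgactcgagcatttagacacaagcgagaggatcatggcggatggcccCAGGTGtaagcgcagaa
The window of ZEB2 and that of TWIST2 held 0 E-boxes of this kind. The CArG box, the sequence read by SRF, was found in 0 of the 9 windows of these 3 genes and in 1.29% of all windows.

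TWIST1 and TWIST2 did not share the direction of the SNAI and ZEB genes. TWIST1 (ENSG00000122691), a driver of mesoderm development and of the transition, lies at chr7:19020991-19117672, minus strand. TWIST1 had 1.77 RPKM in MYOCD and 1.78 RPKM in WT, or about 49 and 56 reads. Its log2 change of -0.01 turned to 0.076 once 11 housekeeping genes served as the zero point, so its sign is not stable. The antisense gene AC003986.2 overlaps exons of TWIST1 and stood at 0 RPKM in MYOCD and 0.0803 RPKM in WT. TWIST2 (Dermo1), ENSG00000233608 at chr2:238848032-238910543, plus strand, had 4.91 RPKM in MYOCD and 6.53 RPKM in WT, or about 114 and 172 reads. Its log2 change was -0.38, less than 2-fold. Although the genes are close paralogs, their annotated transcripts shared 0 stretches of 50 bases, and neither did any other pair among the 10. TWIST2 made up 73.6% of the TWIST sum in MYOCD and 78.6% in WT.

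FOXC2 was next to SNAI2 in the size of its log2 difference. FOXC2 (ENSG00000176692), a forkhead factor of mesenchyme and lymphatic vessels, lies at chr16:86566829-86569728, plus strand. FOXC2 had 1.03 RPKM in MYOCD, against 0.153 RPKM in WT, or about 49 and 8 reads. The ratio of the deposited values was 6.75. The log2 change was 1.23, and with a pseudocount of 1 RPKM it was 0.82, under 2-fold. Of the stretches of 50 bases in FOXC2 transcripts, 3.47% also occur in FOXC1 or, on the other strand, in FOXC2-AS1. FOXC1 stood at 7.52 RPKM in MYOCD and 7.06 RPKM in WT, and FOXC2-AS1 at 0 in both.

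The epithelial factors of the set were all but undetected in both libraries. GRHL2, ENSG00000083307 at chr8:101492432-101669726, plus strand, was listed at 0 in MYOCD and in WT, where 1 read on its longest coding transcript of 5239 bases would have made 0.0116 RPKM in MYOCD and 0.0102 RPKM in WT. OVOL1, ENSG00000172818 at chr11:65787022-65797219, plus strand, had 0.0194 RPKM in MYOCD, the value of about 1 read, and was listed at 0 in WT. No fold is given for either gene. Their antisense neighbours AP001207.3 and AP001266.1 were listed at 0 in both libraries. Relatives of the pair, picked once their values were known, are given for comparison. GRHL1 had 1.55 RPKM in MYOCD and 0.835 RPKM in WT, GRHL3 had 0.792 and 0.906 RPKM, OVOL2 had 0.0629 and 0 RPKM, and OVOL3 had 0.262 and 0.667 RPKM. The grainyhead gene with the highest value was therefore GRHL1 in MYOCD and GRHL3 in WT, where both stood under 1 RPKM. No OVOL gene reached 1 RPKM in either library.

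Other genes of the pathway were read from lists written from general knowledge, but with earlier results of these data known. The direction of a list is therefore not independent evidence. The counts below stand against the 12337 protein-coding genes past the filter, of which 3.02% were at least 2-fold above WT and 3.1% below. The median change over all genes past the filter was -0.0021. Among 21 other mesenchymal transcription factors past the filter, 2 stood at least 2-fold above WT and 0 below, and 17 had a change above 0, with a median of 0.41. The pair was TCF4, an E protein that can pair with TWIST factors, with 7.75 RPKM in MYOCD and 2.65 RPKM in WT, and SOX9, a factor of cartilage and progenitor cells, with 11.9 and 4.29 RPKM. The other E proteins also had higher values in MYOCD, under 2-fold. TCF3 had 58.0 RPKM in MYOCD and 32.4 RPKM in WT, and TCF12 had 58.1 and 41.0 RPKM. YBX1, an RNA and DNA binding protein, was the most abundant gene of this list, with 299.6 and 256 RPKM.

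The 16 other epithelial transcription factors past the filter held 1 gene at least 2-fold above WT and 1 at least 2-fold below, with a median of 0.13. HNF4A, a factor of endodermal epithelia, was higher, with 10.7 RPKM in MYOCD and 4.36 RPKM in WT. ELF3, an epithelial ETS factor, was lower, with 56.0 RPKM in MYOCD and 123 RPKM in WT. CEBPB, next to ELF3 in mean level, had 72.2 RPKM in MYOCD and 62.1 RPKM in WT, and TFAP2A had 22.4 and 32.6 RPKM. The list went both ways.

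Genes that SNAI and ZEB proteins are known to repress also went both ways. Of 29 past the filter, 5 stood at least 2-fold above WT and 1 at least 2-fold below, with a median of 0.034. With a pseudocount of 1 RPKM, or with a filter of 5 RPKM, 2 stood above and 1 below. CDH1, named for its place in the pathway, had 35.8 RPKM in MYOCD and 35.0 RPKM in WT. Among the higher genes were MUC1 (log2 change 1.36), EPCAM (1.15), the epithelial sorting gene MAL2 with 1.07 RPKM in MYOCD and 0.176 RPKM in WT, and EPN3 with 1.00 and 0.181 RPKM. LLGL2, a polarity gene, was lower (-1.12). Of these, MAL2, EPN3 and EPCAM passed the filter only through the MYOCD library. The most abundant genes of the list lay under 2-fold, SPINT2 with 292 RPKM in MYOCD and 277 RPKM in WT (log2 change 0.074), and the keratin genes KRT8 (-0.52) and KRT18 (-0.54) with lower values in MYOCD. Summed over all 42 genes of the list in the table, the level was 2815 RPKM in MYOCD and 3799 RPKM in WT. Most of both sums came from KRT8 (1059 RPKM in MYOCD and 1523 RPKM in WT) and KRT18 (1134 and 1647 RPKM). The difference between the sums therefore mainly follows these keratin genes and does not describe the list.

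Mesenchymal effector genes had the most members past 2-fold. Of 26 past the filter, 10 stood at least 2-fold above WT and 0 below, and 23 had a change above 0, with a median of 0.50. Over all protein-coding genes past the filter, 3.02% stood at least 2-fold above WT and 3.1% below. CDH11, SPOCK1 and ITGB3 passed the filter only through the MYOCD library. The gene with the highest log2 change was CDH11, a cadherin of mesenchymal cells, with 4.56 RPKM in MYOCD and 0.0485 RPKM in WT. The neural cadherin gene CDH2 (log2 change 2.93), COL5A1 (2.85), SPOCK1 (2.84) and COL1A1 (2.06) followed. TGFBI (1.43), NT5E (1.40) and TAGLN (1.39) had smaller values, as did ITGB3, with 2.14 RPKM in MYOCD and 0.540 RPKM in WT, and MMP14, with 3.06 and 1.18 RPKM, the remaining genes of the 10. VIM, the third in mean level, was under 2-fold (0.49). ITGB1 had 666 RPKM in MYOCD and 622 RPKM in WT. FN1 and ACTA2, named for their place in the pathway, lay near 0, with log2 changes of 0.0047 and 0.11. The 3 genes with a change below 0 were COL5A2 (-0.30), S100A4 (-0.43) and THY1 (-0.73). Like the other lists, this one was written with earlier results of these libraries known, so its direction is not independent evidence.

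Further lists cover proteins that act with the SNAI, ZEB and TWIST factors or on them. Of 35 corepressors and partners past the filter, 0 stood at least 2-fold above WT and 1 below, with a median of 0.048. The lower one was the histone methyltransferase gene EHMT1, with 27.1 RPKM in MYOCD and 119 RPKM in WT. Its gene model holds 18 transcripts under 200 bases and 1 small RNA gene, and whether these shaped its value was not tested. PRMT5, an arginine methyltransferase, had 262 RPKM in MYOCD and 155 RPKM in WT. The listed genes of ID proteins, which bind E proteins away from DNA, had lower values in MYOCD, under 2-fold. ID1 had 150.2 RPKM in MYOCD and 225 RPKM in WT, and ID3 had 182 and 267 RPKM. ID2, with 107 and 206 RPKM, lay closest to 2-fold of these, at a log2 change of -0.94. The 33 genes past the filter whose products modify or degrade the EMT factors held 0 at least 2-fold above WT and 1 below, with a median of 0.087. That gene was LATS2, a Hippo pathway kinase that can phosphorylate SNAI1, with 5.75 RPKM in MYOCD and 12.6 RPKM in WT, a log2 change of -1.07. With the 11 housekeeping genes as the zero point, 0 genes of this list were past 2-fold. EIF3H, FBXO22 and MDM2, the most abundant of that list, lay under 2-fold, with MDM2 at 169 RPKM in MYOCD and 232 RPKM in WT. Of protein-coding genes past the filter, 6.11% were past 2-fold in either direction, and of those with at least 10 RPKM in a library 3.28% were. Both lists also held genes below 10 RPKM, so neither share matches them fully.

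**Figure D5:**
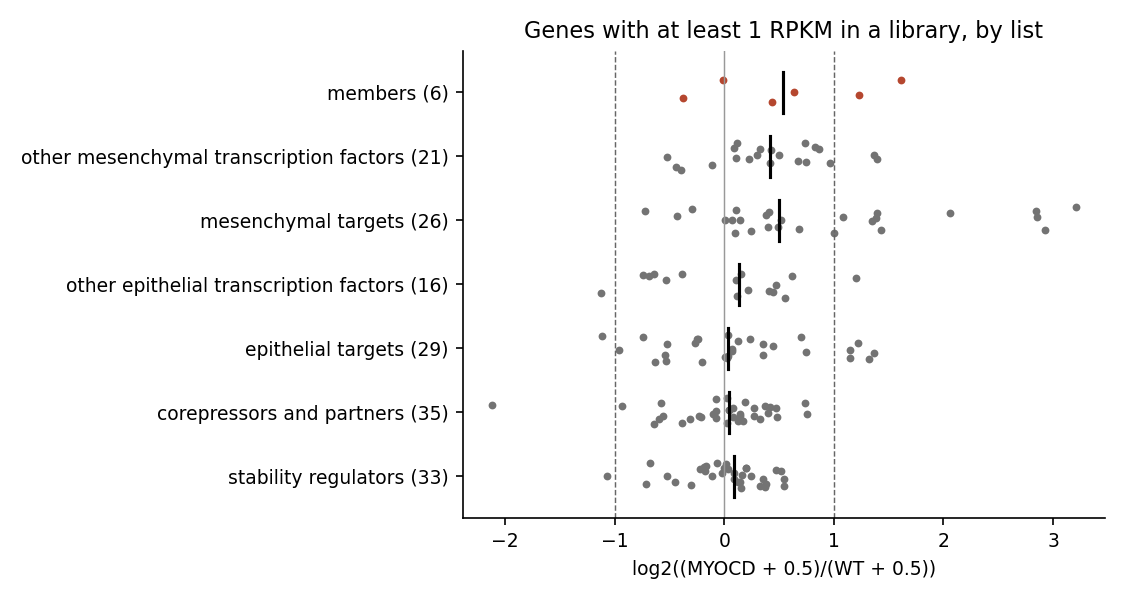
Change between MYOCD and WT on the log2 scale for each gene with at least 1 RPKM in a library, by list, with the number of genes in brackets; black bars are medians and dashed lines mark 2-fold. The 6 members have a median of 0.54, and SNAI2 and FOXC2 among them passed the filter only through the MYOCD library. Mesenchymal targets have a median of 0.50. All lists were written with earlier results known. The corepressors and the stability regulators lie mostly between the dashed lines.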

How the data were processed

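The authors deposited 1 table of RPKM values with 57979 gene rows and a column for each library, per the file headers, and a key in the file defines the columns as WT and MYOCD overexpression. The submitters' processing notes list Bowtie 0.12.2 with GRCh38.p12 and with mm8, a mouse build whose role they leave unsaid. The sources used here do not give the counting tool, the annotation or the use of strand.

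A symbol on several rows (248 of 56255) used the row with the higher mean. GENCODE release 29 (GRCh38) gave positions and held 57375 of the identifiers. The pseudocount was 0.5 RPKM, the filter 1 RPKM and the threshold 2-fold. No p-value was computed because each group is 1 library. Relative depth came from 3243 gene models with 1 transcript of at least 1000 bases. Among their 973 lowest, 61.8% had a ratio within 5% of a simple fraction times the depth ratio, where windows of that width cover 29.8% of the range. The depth ratio was set at the densest point of these same ratios. Of the 601 ratios in the windows, 215 lay in the window at that point. The 29.8% assumes an even spread, so the 2 shares describe the ratios and test nothing. The method was tested on simulated data made of whole reads, which cannot test whether the deposited values hold whole reads. Read numbers are estimates and cover no counting error. All members were named, and in each pathway list the genes past 2-fold (at most 8 by rule) and the 3 most abundant. For mesenchymal targets all 10 genes past 2-fold were named, and the 3 with a change below 0. Some further genes were named for their place in the pathway, and marker and housekeeping genes were named only in part. The values of 1 listed gene are not reported here. The members and lists were chosen with earlier results of these data known. Genes were not matched by pattern, because 2 libraries give each gene a single ratio. Python 3.11.15 and pandas 2.3.3 were used.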

Additional observations from a re-analysis of the deposited data

How the results depend on the processing

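With a pseudocount of 1 RPKM the log2 change of FOXC2 was 0.82 and 1 of the 10 genes, SNAI2, was higher by 2-fold or more; with 0.1 RPKM the log2 change of ZEB2 was 1.64. With 11 housekeeping genes as the zero point, a shift of 0.087, TWIST1 turned to 0.076. With at least 5 RPKM in a library, 2 members were left, 0 past 2-fold, with a median of 0.031. With a mean of at least 1 RPKM, 4 were left, 0 past 2-fold, with a median of 0.21. Both of these filters left out SNAI2 and FOXC2, the members past 2-fold in the main setting. With a threshold of 1.5-fold, 47 of the 164 pathway list genes past the filter were counted, against 22 at 2-fold. Over all genes past the filter, the shares were 24.8% at 1.5-fold and 11.8% at 2-fold. Over the protein-coding genes among them, the share at 2-fold was 6.11%. SNAI2 was higher by 2-fold or more under all 3 scalings and both other pseudocounts. Whether these differences would recur in other cultures was not testable with 1 library a group, and genes such as FOXC2 rest on few reads in WT. No paired analysis was possible because each group has 1 library.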
